A study of Mus musculus with 21 samples.

Results

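Notch signaling was followed through 10 genes in mouse mammary tumors: the 4 receptors *Notch1*, *Notch2*, *Notch3* and *Notch4*, the 4 ligands *Jag1*, *Jag2*, *Dll1* and *Dll4*, and the targets *Hes1* and *Hey1*. The genes were chosen by symbol, as a list, from the 49652 genes counted, and all 10 passed the filter on low counts that left 19315 genes to test. RNA from whole tumors was sequenced for 9 control tumors and 12 tumors of the RhoC cohort, on an FVB background. Every tumor carried FloxNeoNeuNT, in which an activated Neu cDNA sits behind a removable stop cassette at the ErbB2 locus, and MMTV-CreNLST, a mammary-restricted Cre transgene whose activity is thought to be limited. The 12 RhoC tumors also carried R26(RhoC/+), a wildtype RhoC cDNA linked to eGFP behind a stop cassette at Rosa26. Of the controls, 7 also carried *Gata4*(loxP/+) and 2, N-15 and N-17, carried no such allele in their labels. The age of the mice was not given in the labels. The study reports that mammary tumors formed at a younger age in RhoC mice than in controls, so age and cohort cannot be told apart here.

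The 9 control tumors came from 9 mice. The 12 RhoC tumors came from 8 mice when R-18, whose mouse was not named, is counted as its own: R-13, R-14, R-15 and R-16 shared mouse P497, and R-6 and R-7 shared mouse N9255. The labels give R-21 a mouse that the study lists for another tumor. Counted reads per tumor ran from 47552423 to 100741339 in controls (median 64729272) and from 47309780 to 85326903 in RhoC tumors (median 60157351), and each of the 10 genes had at least 122 reads in every tumor. *Rhoc* itself had 77.7 ± 53.7 CPM (read counts scaled to library size with TMM factors) in controls (SD, n = 9) and 88.8 ± 33.5 CPM in RhoC tumors (SD, n = 12), and the ranges overlapped, so the level of the targeted gene did not set the cohorts apart (edgeR log2 fold change 0.19 with SE 0.34 and an adjusted p of 0.774). The counts do not separate transgene from endogenous transcripts. All 11 luminal epithelial markers were detected, at a summed 2423 to 6543 CPM in controls and 1531 to 5139 CPM in RhoC tumors. Histological class was taken from the pathology listed by the study and not from the sample labels, so it is used here to describe tumors and in no test of its own.

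Notch receptors are single-pass membrane proteins that are activated by ligands of the Jagged and Delta-like families on neighbouring cells. Ligand binding allows ADAM proteases and then gamma-secretase to cut the receptor, and the freed intracellular domain joins *Rbpj* and a Mastermind protein in the nucleus to switch on targets such as the repressors *Hes1* and *Hey1*. In the mammary gland, *Notch3* and *Notch1* are associated with luminal progenitors, Jagged ligands are found in basal and stratified epithelium, and *Notch4* with *Dll4* is known best from endothelium.

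On a scale of CPM per kilobase of transcript, which allows levels of different genes to be compared, *Jag1* had the highest mean over the 21 tumors, at 35.6 ± 43.2 CPM per kb (SD, n = 21). *Hes1* followed at 28.2 ± 11.1, *Notch1* at 24.0 ± 15.8, *Hey1* at 24.0 ± 25.7, *Notch3* at 22.9 ± 8.71 and *Notch2* at 19.2 ± 6.35 CPM per kb. *Dll1* had 11.8 ± 9.66, *Jag2* 7.19 ± 11.7, *Notch4* 3.81 ± 1.95 and *Dll4* 3.29 ± 1.60 CPM per kb. The spread between tumors was as large as or larger than most of these steps. No neighbours in this order differed by more than the SD of their log2 ratio over tumors. *Jag1*, first by its mean, stood above *Hes1* in 9 of 21 tumors, and *Notch2* stood above *Dll1* in 17 of 21 tumors (mean log2 ratio 1.17, SD 1.29). *Notch1* moved from rank 3 to rank 6 when exon lengths from GENCODE M21 (14232 bases in place of 10677) were used.

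The make-up of receptors and ligands varied widely between tumors. Among the 4 receptors, *Notch1* held the largest share of the summed CPM per kb in 10 tumors, *Notch3* in 8 and *Notch2* in 3, and *Notch4* never exceeded 13.8%. This order depended on the transcript length: with GENCODE M21 exon lengths *Notch3* led in 10 tumors, *Notch1* in 7 and *Notch2* in 4, as N-9 and R-12 passed from *Notch1* to *Notch3* and R-2 to *Notch2*. With the deposited length, the *Notch1* share ran from 6.17% in R-21 to 60.9% in N-15. Its mean was 35.4 ± 14.8% in controls (SD, n = 9) and 30.0 ± 14.9% in RhoC tumors (SD, n = 12), a difference smaller than the SD within either cohort. Among the ligands, *Jag1* led in 14 tumors and *Dll1* in 7 with either length, and the *Jag1* share was 52.1 ± 16.1% in controls and 52.3 ± 23.0% in RhoC tumors. *Dll1* led in the control tumors N-6 and N-17 and in R-1, R-7, R-16, R-18 and R-21. These 7 tumors were also the 7 with the most *Hey1* (7 of 7, or 100% of each list), at 57.7 CPM or more against at most 54.6 CPM in the others. This is a description of how 2 orderings coincided, with no test.

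**Figure D1:**
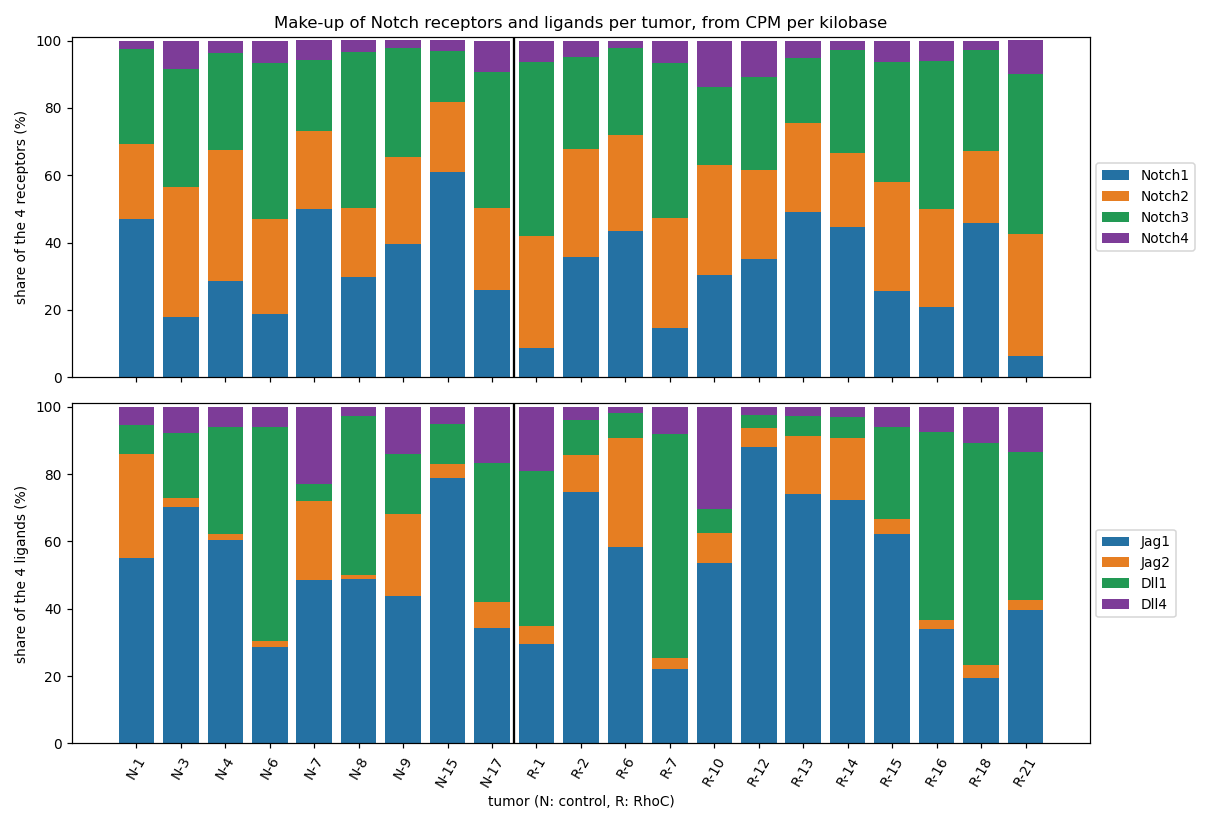
Share of each gene in the summed CPM per kilobase of the 4 receptors (top) and of the 4 ligands (bottom) in each of 21 tumors, in percent, with 9 control tumors left of the black line and 12 RhoC tumors right of it. Notch1 fills 6.17% to 60.9% of the receptor bars, and Dll1 is the largest ligand segment in 7 tumors.

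To ask whether the RhoC cohort differed from controls in Notch genes, each member was read from an edgeR quasi-likelihood fit over all 19315 tested genes. None of the 10 passed an adjusted p of 0.05, where 43 genes did in all (0.223%). At an unadjusted p under 0.05, 4 of the 10 did, *Notch2*, *Hes1*, *Jag1* and *Notch4*, all with a positive log2 fold change, beside 10.5% of all genes in that direction. Tumors of one mouse entered this count separately. With counts summed per mouse, *Notch2* and *Hey1* were under that p (0.0100 and 0.0497), and *Notch4*, *Hes1* and *Jag1* were not (0.0558, 0.0655 and 0.0842, edgeR), beside 6.85% of all genes under it and higher in that fit. DESeq2 on the same genes called 1 member, *Notch2*, beside 6.24% of all genes. The log2 fold change was positive for 9 of the 10 (49.6% of all tested genes), and the median over the 10 was 0.61 against -0.01 over all tested genes. With counts summed per mouse 8 of the 10 were positive (47.5% of all genes in that fit) and the median was 0.46. Without the 3 squamous cell carcinomas 8 were positive (48.3% of all genes), and the median fell to 0.38. For every member the CPM ranges of the cohorts overlapped, whereas 3 of the 19315 genes (0.0155%) had ranges that did not. In RNA from whole tumors, fewer cells of a type and less RNA per cell cannot be told apart.

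Among the receptors, *Notch2* (ENSMUSG00000027878.11, chr3:98013538-98150361, GRCm38), which is broadly expressed in epithelium, had the smallest p. Control tumors ran from 116 CPM in N-3 through a median of 163 CPM to 196 CPM in N-17. RhoC tumors ran from 155 CPM in R-10 through a median of 225 CPM to 427 CPM in R-6. Of the RhoC tumors 9 of 12 lay above the highest control, and no control reached the RhoC median. The 9 include all 4 tumors of mouse P497 and both tumors of N9255, so they are not 9 separate mice. The log2 fold change was 0.57 (SE 0.16, unadjusted p = 0.00149, adjusted p = 0.0815, edgeR), and DESeq2 gave 0.57 (SE 0.16) with an adjusted p of 0.0170. With counts summed per mouse the log2 fold change was 0.44 (SE 0.15, adjusted p = 0.270, edgeR), and without the 3 squamous cell carcinomas it was 0.43 (SE 0.14, adjusted p = 0.186, edgeR). The genes *Gm42819* and *Gm42820*, annotated within *Notch2* on the same strand, had reads that came to 1.57% and 0.829% of those of *Notch2*.

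*Notch4* (ENSMUSG00000015468.14, chr17:34564268-34588503), the receptor known from endothelium, ran from 8.63 CPM in N-4 through a median of 16.6 CPM to 49.3 CPM in N-17 in controls. In RhoC tumors it ran from 16.1 CPM in R-18 through 30.6 CPM to 58.4 CPM in R-12. Of the RhoC tumors, 11 of 12 lay above the control median, but N-17 lay above all RhoC tumors except R-12. The edgeR log2 fold change of *Notch4* was 0.65 (SE 0.30) with an adjusted p of 0.220, and 0.94 (SE 0.28) with an adjusted p of 0.0722 with only the *Gata4*(loxP/+) controls, which leaves out N-17. N-17 also had the highest summed endothelial markers of all tumors, 1102 CPM against 131 to 507 CPM in the other controls and 218 to 733 CPM in RhoC tumors. The part of these cells in the *Notch4* values was not tested.

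*Notch3* (ENSMUSG00000038146.8, chr17:32120820-32166852) ran from 79.7 through 158 to 268 CPM in controls and from 84.5 through 221 to 299 CPM in RhoC tumors (lowest, median and highest). The log2 fold change in edgeR was 0.38 (SE 0.26, adjusted p = 0.397). *Notch1* (ENSMUSG00000026923.15, chr2:26457903-26516663), a regulator of differentiation in stratified epithelium, spanned 54.4 to 485 CPM in controls (median 226) and 44.1 to 653 CPM in RhoC tumors (median 234). The medians almost coincided while single tumors differed 14.8-fold, and the log2 fold change was 0.18 (SE 0.45, adjusted p = 0.844, edgeR). Its sign was not stable: it was -0.10 with counts summed per mouse, -0.097 with mouse as a random effect (limma), -0.39 without the squamous cell carcinomas and -0.018 without R-6.

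**Figure D2:**
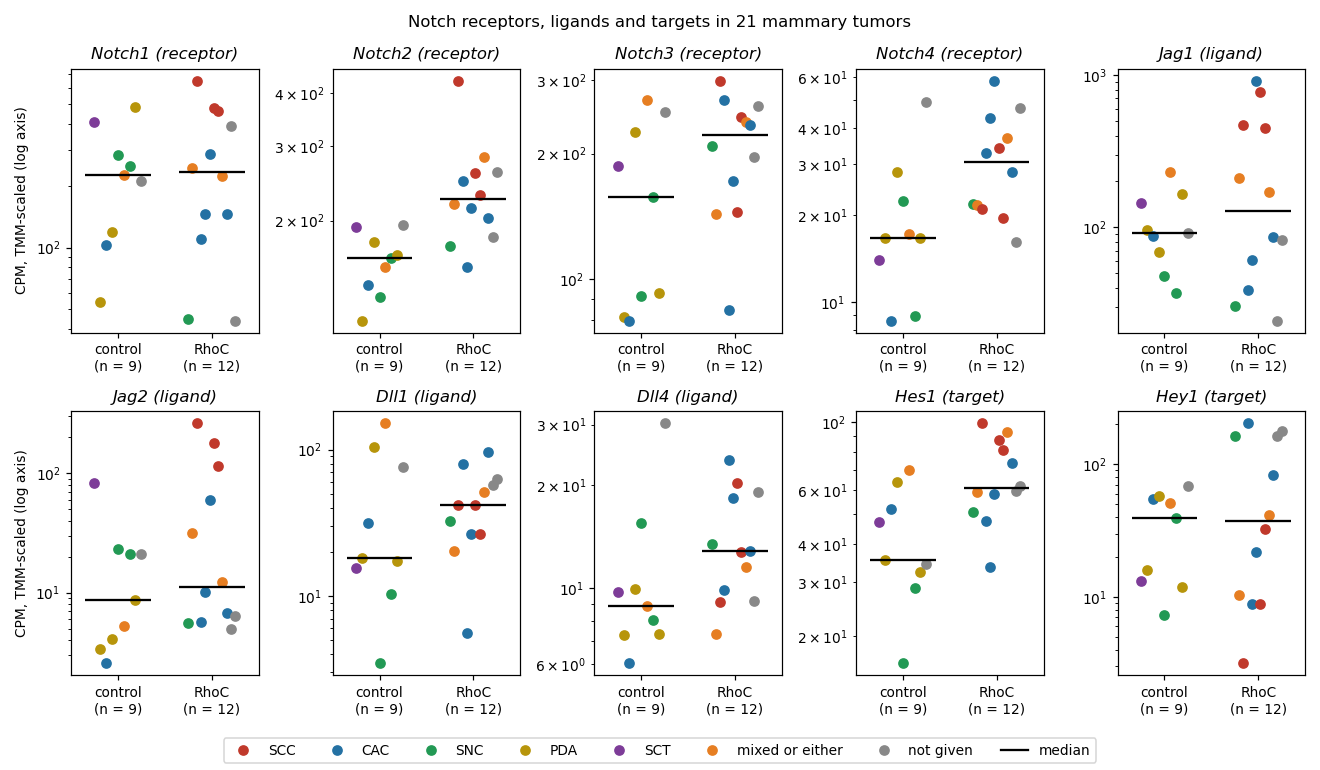
CPM of each gene in each tumor on a log axis, with 9 control and 12 RhoC tumors, colored by the histological class that the study lists (SCC, squamous cell carcinoma; CAC, complex adenocarcinoma; SNC, solid nodular carcinoma; PDA, poorly differentiated adenocarcinoma; SCT, spindle cell tumor), and black lines at the cohort medians. For Notch2, 9 RhoC tumors, among them all tumors of mice P497 and N9255, lie above the highest control at 196 CPM, and the 3 SCC points are the highest 3 for Jag2.

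The ligands *Jag1*, *Jag2* and *Dll1* spread more widely over the tumors than any receptor. *Jag1* (ENSMUSG00000027276.7, chr2:137081456-137116644), a ligand of basal and stromal cells, ran from 37.0 CPM in N-9 through a median of 91.0 CPM to 229 CPM in N-8 in controls. In RhoC tumors it ran from 24.4 CPM in R-18 through 128 CPM to 918 CPM in R-12. The 4 RhoC tumors above every control were R-12 and 3 squamous cell carcinomas, R-13 (771 CPM), R-6 (467 CPM) and R-14 (446 CPM), while R-18 and R-1 (30.2 CPM) lay below every control. The cohort difference was 1.36 on the log2 scale (SE 0.62, unadjusted p = 0.0380, adjusted p = 0.219, edgeR). It was 0.75 (SE 0.61, adjusted p = 0.566) without the squamous cell carcinomas and 0.44 (SE 0.67, adjusted p = 0.805, limma) with mouse as a random effect.

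*Jag2* (ENSMUSG00000002799.6, chr12:112907819-112929776), the Jagged ligand expressed in stratified epithelium, had the widest range of the 10 genes, 103-fold from the lowest to the highest tumor. Controls ran from 2.56 CPM in N-4 through a median of 8.68 CPM to 82.3 CPM in N-1. RhoC tumors ran from 4.96 CPM in R-18 through 11.2 CPM to 263 CPM in R-6. Only R-6, R-13 (180 CPM) and R-14 (115 CPM), the 3 squamous cell carcinomas, exceeded N-1, the control listed as a spindle cell tumor. The log2 fold change was 1.62 (SE 0.85, adjusted p = 0.285, edgeR). It was -0.26 (SE 0.68, adjusted p = 0.881) without the 3 squamous cell carcinomas, 1.07 without R-6 and 2.40 without N-1. Where tumors of one mouse were not counted separately it was lower, 0.96 (SE 0.77, adjusted p = 0.597, edgeR) with counts summed per mouse and 0.78 (SE 0.92, adjusted p = 0.737, limma) with mouse as a random effect.

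*Dll1* (ENSMUSG00000014773.13, chr17:15367354-15376872) had a log2 fold change near 0, -0.07 (SE 0.54, adjusted p = 0.950, edgeR), and its sign was not stable. It was -0.26 with counts summed per mouse, 0.35 with mouse as a random effect (limma) and 0.013 without the squamous cell carcinomas, and it was also positive without N-6 (0.17), N-8 (0.39), N-17 (0.038) or R-10 (0.037). Control tumors ran from 3.47 CPM in N-7 through 18.2 CPM to 152 CPM in N-8, and RhoC tumors from 5.56 CPM in R-10 through 41.9 CPM to 96.5 CPM in R-16. The means and medians went opposite ways: 11 of 12 RhoC tumors exceeded the control median, while the 2 highest tumors, N-8 and N-6 (105 CPM), were controls. *Dll4* (ENSMUSG00000027314.6, chr2:119325784-119335962), a ligand known from sprouting vessels, was low throughout, from 6.03 through 8.85 to 30.3 CPM in controls and from 7.35 through 12.8 to 23.7 CPM in RhoC tumors. Its highest value was in N-17, and in edgeR the cohorts differed by 0.28 on the log2 scale (SE 0.28, adjusted p = 0.580). This was 0.62 (SE 0.23, adjusted p = 0.150) without N-17 and 0.58 (SE 0.24, adjusted p = 0.162) with only the *Gata4*(loxP/+) controls, but 0.19 (SE 0.28, adjusted p = 0.71) without R-10. *Gm14207*, a gene on the opposite strand that overlaps the start of *Dll4*, had 2.53% as many reads as *Dll4*, and the strand setting of the counting was not stated.

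Of the targets, *Hes1* (ENSMUSG00000022528.8, chr16:30064384-30067796), a repressor that many signals besides Notch can induce, ran from 16.3 CPM in N-7 through 35.4 CPM to 69.6 CPM in N-8 in controls. RhoC tumors ran from 33.6 CPM in R-10 through 60.8 CPM to 99.4 CPM in R-6, and 5 of the 12 lay above every control. These 5 came from 2 mice, R-6 and all 4 tumors of P497. The log2 fold change was 0.67 (SE 0.23, unadjusted p = 0.00811, adjusted p = 0.128, edgeR), with an adjusted p of 0.0676 in DESeq2. It was 0.48 (SE 0.24, unadjusted p = 0.0655) with counts summed per mouse and 0.48 (SE 0.26, unadjusted p = 0.0796) without P497. *Hey1* (ENSMUSG00000040289.8, chr3:8663359-8667256), the other repressor, ran from 7.35 through 39.1 to 68.0 CPM in controls, and RhoC tumors spread on both sides of that range, from 3.17 CPM in R-6 through 37.3 CPM to 204 CPM in R-7. R-7, R-21 (179 CPM), R-1 (164 CPM), R-18 (164 CPM) and R-16 (82.4 CPM) exceeded every control. The log2 fold change of *Hey1* was 1.12 (SE 0.67, adjusted p = 0.346, edgeR), although 6 of 12 RhoC tumors and not more lay above the control median. It was 0.54 (SE 0.82, adjusted p = 0.806, limma) with mouse as a random effect and 1.30 (SE 0.62, adjusted p = 0.392, edgeR) with counts summed per mouse. Without the squamous cell carcinomas it was 1.46 (SE 0.61, adjusted p = 0.270, edgeR).

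**Figure D3:**
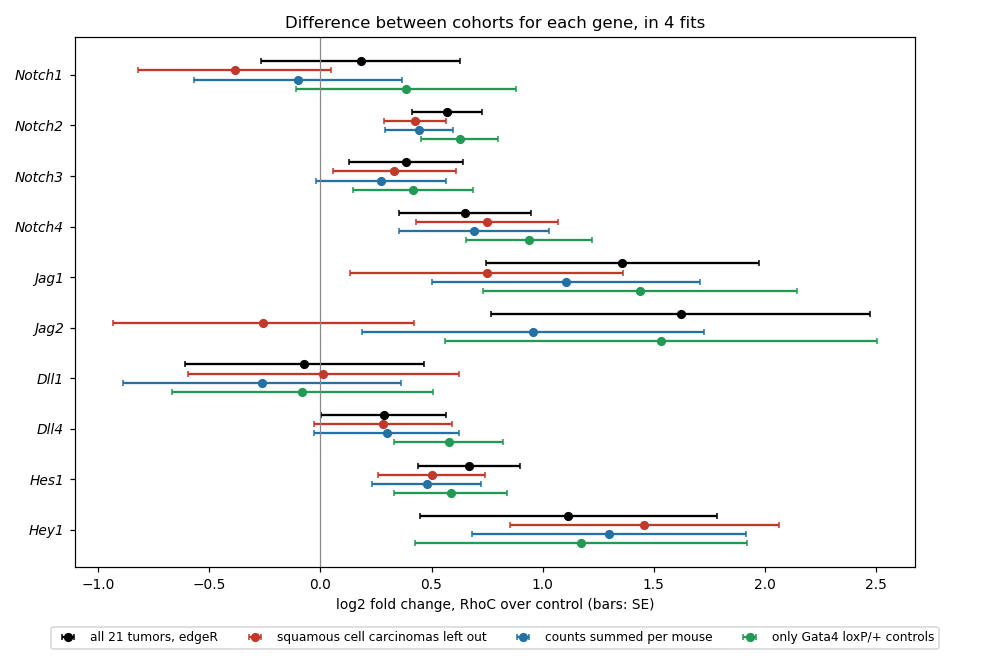
Log2 fold change of each gene, RhoC over control, with bars of 1 SE, from edgeR on all 21 tumors (black), without the 3 squamous cell carcinomas (red), on counts summed per mouse (blue) and with only the 7 Gata4(loxP/+) controls (green). Notch2 stays between 0.43 and 0.63 in these fits, whereas Jag2 goes from 1.62 to -0.26 without the squamous cell carcinomas.

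Tumors of the same mouse allowed squamous cell carcinomas to be set beside other histologies. In mouse N9255, the squamous cell carcinoma R-6 had 263 CPM of *Jag2* and the complex adenocarcinoma R-7 had 5.68 CPM, a 46.3-fold difference. *Jag1* (467 and 38.9 CPM) and *Notch1* (653 and 110 CPM, 5.91-fold) differed in the same direction. *Hey1* went the other way, 3.17 CPM in R-6 and 204 CPM in R-7, a 64.3-fold difference that spans the whole range of this gene. In mouse P497, the squamous cell carcinomas R-13 and R-14 averaged 148 CPM of *Jag2* against 9.55 CPM in R-15 and R-16, 15.5-fold higher, with *Jag1* 4.76-fold and *Notch1* 2.56-fold higher. *Hey1* was 2.99-fold higher in R-15 and R-16, and *Hes1* averaged 84.4 CPM in the squamous cell carcinomas and 83.1 CPM in R-15 and R-16. In N9255 *Hes1* was 99.4 CPM in R-6 and 47.6 CPM in R-7, 2.09-fold higher in the squamous cell carcinoma. *Notch2* differed 1.72-fold in N9255 and 1.01-fold in P497. With 1 tumor or 2 of each kind per mouse these folds are values without a test. The 3 squamous cell carcinomas had summed squamous markers of 2222 to 8694 CPM and basal markers of 5967 to 17232 CPM, against 5.96 to 1292 CPM and 71.8 to 4529 CPM in the other RhoC tumors. Control N-1 had 1963 CPM of squamous markers, and R-12, listed as a complex adenocarcinoma, had 4529 CPM of basal markers.

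To see which members varied together, log2 CPM was averaged per mouse and all 45 pairs were correlated over the 17 mice. After adjustment 5 pairs passed (Pearson's r with a permutation p, Benjamini-Hochberg over 45 pairs): *Notch4* with *Dll4*, *Dll1* with *Hes1*, *Notch3* with *Dll1*, *Notch2* with *Notch3* and *Dll1* with *Hey1*. Points were whole tumors, so members share library, depth and cell make-up. *Notch4* and *Dll4* had the strongest relation, r = 0.84 (permutation p = 2e-05, adjusted 0.0009) and Spearman's rho = 0.84 (permutation p = 5e-05). It held within controls (r = 0.84, n = 9, exact p = 0.00411) and within RhoC mice (r = 0.82, n = 8, exact p = 0.0163), and r was 0.81 without the 2 mice farthest from the median.

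*Dll1* was correlated with 3 other members, the receptor *Notch3* and both targets. For *Dll1* and *Notch3*, r was 0.75 (permutation p = 0.00053, adjusted 0.00795) and rho 0.80 (permutation p = 0.00017), with r = 0.67 in controls (n = 9, exact p = 0.0538) and 0.96 in RhoC mice (n = 8, exact p = 0.000843). For *Dll1* and *Hes1*, r was 0.77 (permutation p = 0.00021, adjusted 0.00472) and rho 0.77 (permutation p = 0.00054), with r = 0.85 in controls (n = 9, exact p = 0.00452) and 0.84 in RhoC mice (n = 8, exact p = 0.0223). For *Dll1* and *Hey1*, r was 0.69 (permutation p = 0.00217, adjusted 0.0195) and rho 0.75 (permutation p = 0.00084), with r = 0.80 in controls (n = 9, exact p = 0.0112) and 0.68 in RhoC mice (n = 8, exact p = 0.0487). Without the 2 farthest mice these 3 values of r were 0.87, 0.61 and 0.54. *Notch2* and *Notch3* had r = 0.71 (permutation p = 0.00117, adjusted 0.0132) and rho = 0.64 (permutation p = 0.0074, adjusted 0.0555), with r = 0.74 in both cohorts (n = 9, exact p = 0.0281, and n = 8, exact p = 0.0332) and 0.61 without the 2 farthest mice. *Hes1* and *Hey1* themselves had r = 0.46 and did not pass. For *Jag1* and *Jag2* r was 0.48, and for *Jag2* with *Hey1* it was -0.47, neither past the threshold. The 5 pairs also passed without the squamous cell carcinomas, where *Notch3* with *Hey1* passed as well (r = 0.70, adjusted permutation p = 0.0196).

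**Figure D4:**
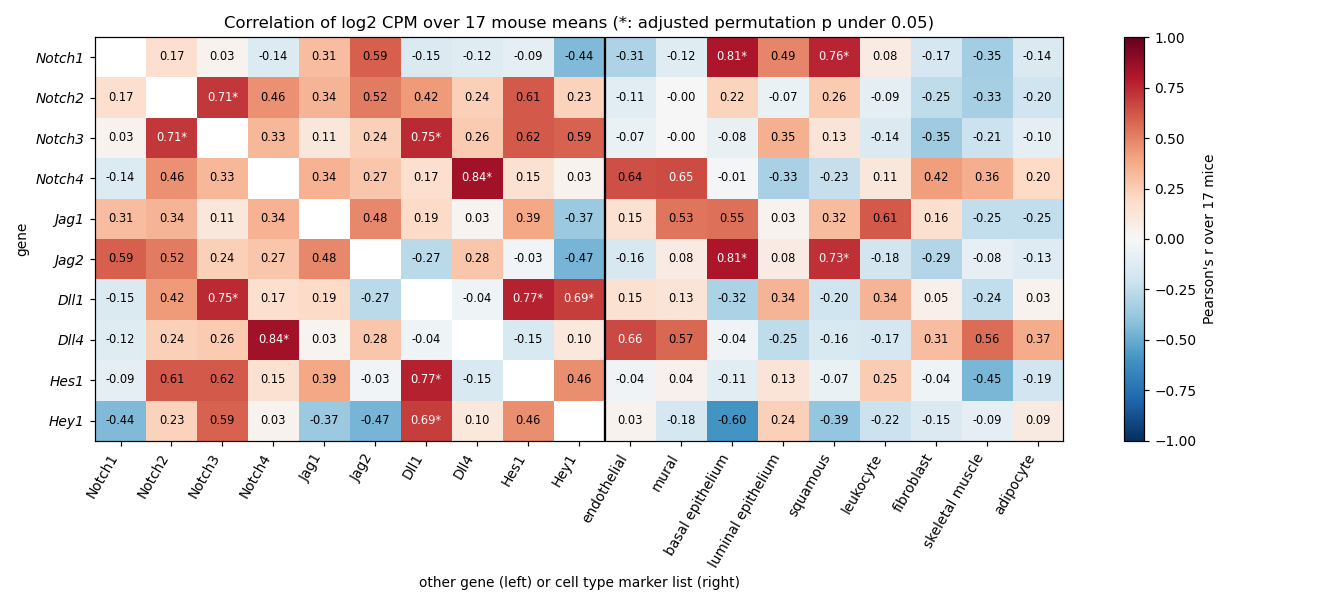
Pearson's r of log2 CPM over 17 mouse means, for each pair of the 10 genes (left of the black line) and for each gene with the mean log2 CPM of 9 cell type marker lists (right), with an asterisk where the permutation p adjusted within its family is under 0.05. An asterisk marks 5 pairs of members and 4 pairs with the basal epithelial or squamous lists.

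Promoters are shown for the pairs that varied together and have both sequences because a shared sequence feature would be looked for there. They are the bases before the RefSeq start, outside the gene as GENCODE M21 draws it (GRCm38.p6), printed 5′ to 3′ on the strand of the gene, in lower case with motif matches in capitals. RefSeq promoters were at hand for 8 of the members, not for *Hes1* and *Hey1*. For *Notch1* and *Jag2* the bases before the RefSeq start lay inside the gene, so nothing was left to search.
Notch2, chr3:98013288-98013526, + strand: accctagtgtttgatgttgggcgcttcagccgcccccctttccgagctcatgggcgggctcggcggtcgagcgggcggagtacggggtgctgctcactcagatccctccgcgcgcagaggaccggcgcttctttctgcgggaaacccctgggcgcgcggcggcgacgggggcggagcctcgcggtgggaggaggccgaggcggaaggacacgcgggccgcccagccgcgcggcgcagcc
Notch3, chr17:32166891-32167140, - strand: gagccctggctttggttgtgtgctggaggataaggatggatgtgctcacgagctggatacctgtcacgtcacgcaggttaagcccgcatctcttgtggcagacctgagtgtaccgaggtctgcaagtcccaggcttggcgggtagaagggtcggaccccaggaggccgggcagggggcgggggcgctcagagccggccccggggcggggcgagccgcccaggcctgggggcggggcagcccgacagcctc
Dll1, chr17:15376933-15377182, - strand: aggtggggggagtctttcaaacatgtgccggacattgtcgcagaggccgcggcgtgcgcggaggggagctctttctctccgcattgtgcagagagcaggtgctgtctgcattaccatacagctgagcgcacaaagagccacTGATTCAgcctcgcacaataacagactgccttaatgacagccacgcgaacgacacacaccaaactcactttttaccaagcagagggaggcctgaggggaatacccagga
Notch4, chr17:34564045-34564267, + strand: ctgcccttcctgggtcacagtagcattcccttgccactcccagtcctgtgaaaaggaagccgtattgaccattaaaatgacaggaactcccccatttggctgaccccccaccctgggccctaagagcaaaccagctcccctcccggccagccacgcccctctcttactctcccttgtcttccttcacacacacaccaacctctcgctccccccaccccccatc
Dll4, chr2:119325534-119325783, + strand: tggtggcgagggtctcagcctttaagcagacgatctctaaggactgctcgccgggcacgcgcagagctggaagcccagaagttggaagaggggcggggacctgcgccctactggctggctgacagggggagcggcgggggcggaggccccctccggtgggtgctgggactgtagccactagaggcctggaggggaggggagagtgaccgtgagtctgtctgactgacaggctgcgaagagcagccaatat
The motifs searched were these, on both strands: TGGGAA, the core bound by *Rbpj*, TGANTCA, the AP-1 site, and CACGTG, an E-box of the kind bound by Hes and Hey proteins. None overlapped another. The one match in these 5 stretches was TGATTCA in *Dll1*, which begins 109 bases before the start, and the stretch of *Jag1* held none. Among 32851 promoters with 250 bases before the start, 21.6% held TGGGAA, 6.75% TGANTCA and 6.02% CACGTG. The *Notch2*, *Notch4* and *Jag1* stretches are shorter, 239, 223 and 126 bases. No pair shared a match.

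The members were also set against the mean log2 CPM of 9 lists of cell type markers over the 17 mice, 90 relations in all. After adjustment 4 passed, *Notch1* and *Jag2* each with basal epithelial and with squamous markers. *Notch1* and basal markers (*Krt5*, *Krt14*, *Krt17* and *Trp63* among them) had r = 0.81 (permutation p = 4e-05, adjusted 0.0036) and rho = 0.75 (permutation p = 0.00082), with r = 0.82 in both cohorts (n = 9, exact p = 0.00665, and n = 8, exact p = 0.0121) and 0.64 without the 2 farthest mice. *Jag2* and basal markers had r = 0.81 (permutation p = 0.00012, adjusted 0.0054) and rho = 0.81 (permutation p = 0.00018), with r = 0.86 in controls (n = 9, exact p = 0.0042), 0.91 in RhoC mice (n = 8, exact p = 0.00427) and 0.88 without the 2 farthest mice. Both also passed without the squamous cell carcinomas, with r = 0.80 for *Notch1* and 0.80 for *Jag2*.

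With squamous markers, r was 0.76 for *Notch1* (permutation p = 0.00038, adjusted 0.0114, rho = 0.80 with permutation p = 0.00018) and 0.73 for *Jag2* (permutation p = 0.00097, adjusted 0.0218, rho = 0.63 with permutation p = 0.00735 and adjusted 0.132). Within controls these were 0.79 and 0.83 (n = 9, exact p = 0.0108 and 0.00524), within RhoC mice 0.75 and 0.80 (n = 8, exact p = 0.0320 and 0.0372), and 0.79 and 0.65 without the 2 farthest mice. Without the squamous cell carcinomas *Notch1* passed (r = 0.75, adjusted permutation p = 0.0135). *Jag2* then did not (r = 0.69, adjusted permutation p = 0.0524, rho = 0.52 with adjusted permutation p = 0.288). Only 7 of the 13 squamous markers were tested, since *Krt1*, *Lor*, *Krtdap*, *Sprr1b*, *Sprr3* and *Krt13* did not pass the filter on low counts. *Jag1* and basal markers had r = 0.55 over 17 mice (permutation p = 0.0220, adjusted 0.165), -0.27 in controls (n = 9, exact p = 0.474) and 0.82 in RhoC mice (n = 8, exact p = 0.0141). Whether the cohorts differed in this relation was not tested. With leukocyte markers, *Jag1* had r = 0.61 (permutation p = 0.0091, adjusted 0.102) and rho = 0.74 (permutation p = 0.00102, adjusted 0.0229), so that the rank correlation passed and Pearson's r did not. Within controls r was 0.78 (n = 9, exact p = 0.0120), within RhoC mice 0.81 (n = 8, exact p = 0.0153), and 0.54 without the 2 farthest mice. *Hey1* had the most negative value with basal markers, r = -0.60 (permutation p = 0.0113, adjusted 0.113), which was -0.34 without the 2 farthest mice. *Notch4* and *Dll4* had r = 0.64 and 0.66 with endothelial markers (permutation p = 0.00499 and 0.0029, adjusted 0.0642 and 0.0522), with rho of 0.61 and 0.44 (permutation p = 0.0107 and 0.0772), and r was 0.42 and 0.49 without the 2 farthest mice. With mural markers r was 0.65 for *Notch4* and 0.57 for *Dll4* (permutation p = 0.0046 and 0.0160, adjusted 0.0642 and 0.142). There rho was 0.55 and 0.27 (permutation p = 0.0235 and 0.290), and r was 0.45 and 0.32 without the 2 farthest mice. *Dll4* had r = 0.56 with skeletal muscle markers (permutation p = 0.0174, adjusted 0.142), which was 0.12 without the 2 farthest mice. Of the marker lists, none had a member called between cohorts, and the median log2 fold change was 0.62 for basal markers (7 of 8 positive), 1.90 for squamous markers (4 of 7 positive), -2.58 for skeletal muscle markers (0 of 5 positive), -1.47 for adipocyte markers (0 of 3 positive) and between -0.30 and 0.18 for the others. Over all tested genes 0.223% were called and 49.6% were positive.

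**Figure D5:**
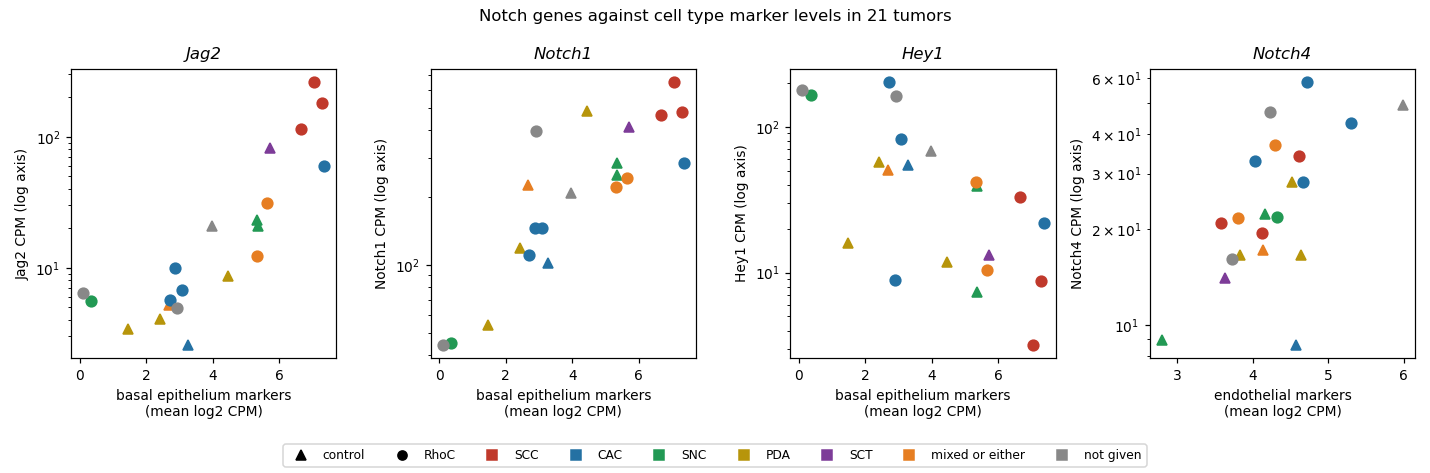
CPM of Jag2, Notch1, Hey1 and Notch4 (log axes) against the mean log2 CPM of a marker list in 21 tumors, with triangles for controls and circles for RhoC tumors, colored by listed histology. The 3 squamous cell carcinomas lie at the upper right for Jag2 (115 to 263 CPM) and Notch1 (464 to 653 CPM) and on the right, at 3.17 to 32.8 CPM, for Hey1.

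Beyond the 10 members, 65 other genes of the pathway were listed by role and 60 of them tested. The lists were chosen with earlier results of these data known, so a count within them is no independent test. Of the 60, 1 gene was called at an adjusted p under 0.05, beside 0.223% of all genes, and the median log2 fold change was 0.15. It was *L3mbtl3*, which joins *Rbpj* to the demethylase *Kdm1a* at repressed targets, with 19.6 ± 4.83 CPM in controls (SD, n = 9) against 38.2 ± 8.30 CPM in the RhoC cohort (SD, n = 12). Its adjusted p in edgeR was 0.00736, at a log2 fold change of 0.96 (SE 0.16), and each of the 12 RhoC values exceeded the median of controls. The call was lost with counts summed per mouse (0.87, adjusted p = 0.0741), with mouse as a random effect (0.93, adjusted p = 0.0703, limma) and without the tumors of P497 (0.89, adjusted p = 0.141), where the log2 fold change was of similar size. Of 7 other tested targets (9 listed), the log2 fold change was 0.81 for *Hes6* (SE 0.24, adjusted p = 0.0970) and 0.97 for the cell cycle gene *Ccnd1* (SE 0.29, adjusted p = 0.0993), and neither was called by edgeR. Mean *Ccnd1* was 512 ± 291 CPM in controls and 1000 ± 372 CPM in the RhoC cohort.

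Among genes that act before the nucleus, edgeR called none, and DESeq2 called *Aph1a* (adjusted p = 0.0466) and *Rfng* (adjusted p = 0.0252), beside 6.24% of all genes. For the counts of positive values that follow, the share over all tested genes was 49.6%. Of the 14 that process ligands and receptors, 12 had a positive log2 fold change, and the 2 with the smallest p were the gamma-secretase subunits *Aph1a* (0.48, SE 0.16, adjusted p = 0.113, edgeR) and *Ncstn* (0.44, SE 0.16, adjusted p = 0.153). All 5 glycosyltransferases, which add or extend sugars on the receptors, had positive values, among them the Fringe enzymes *Rfng* 0.83 (SE 0.25, adjusted p = 0.0955) and *Lfng* 0.71 (SE 0.34, adjusted p = 0.238), the latter 0.42 without R-10. Of 12 inhibitors and turnover genes 4 were positive. *Numbl* was at 0.68 (SE 0.29, adjusted p = 0.194), at 0.44 without the tumors of P497 and at 0.45 without the squamous cell carcinomas. *Fbxw7*, the ubiquitin ligase adaptor that marks the intracellular domain, was at -0.35 (SE 0.15, adjusted p = 0.202) and -0.21 without the squamous cell carcinomas.

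In the nucleus, 2 of 9 activators were positive (49.6% of all tested genes). The smallest p among them belonged to *Snw1* (-0.38, SE 0.12, adjusted p = 0.114, edgeR) and the Mastermind gene *Maml3* (-0.53, SE 0.22, adjusted p = 0.185). Among 9 corepressors, *Tle4* followed *L3mbtl3* at 0.65 (SE 0.29, adjusted p = 0.207). Of 7 other ligands, 4 were tested. *Dlk1* had 1.75 (SE 0.99, adjusted p = 0.320) with means of 0.533 CPM in controls and 1.80 CPM in the RhoC cohort, a value carried by R-2, since it was 0.064 without that tumor. *Cntn1* had -3.07 (SE 1.31, adjusted p = 0.196), a value set by the 103 CPM of a single control, since it was 0.15 without N-1.

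By the same per-mouse measure, the genes most like each member among 14506 others were named, with no test. *Notch1* was closest to the prostaglandin synthase *Ptges* (r = 0.88) and the epidermal ceramide synthase *Cers3* (r = 0.865), and *Jag2* to *Arhgef4* (r = 0.92) and the hemidesmosome collagen *Col17a1* (r = 0.88). *Jag1* was closest to the matrix genes *Tgfbi* (r = 0.92) and *Col18a1* (r = 0.87). *Notch4* was closest to the endothelial factor *Sox18* (r = 0.89) and to *Hic1* (r = 0.88), and *Dll4* to *Nova2* and the endothelial receptor *Robo4* (both r = 0.87). *Cd99l2* was among the genes most like *Dll1* (r = 0.86), and *Notch3* was closest to *Tnks1bp1* (r = 0.91) and *Tor4a* (r = 0.86). For *Notch2* these genes were *B3gnt8* (r = 0.85) and 2900026A02Rik (r = 0.84), for *Hes1* *Ociad2* and *Flrt3* (both r = 0.83), and for *Hey1* E030013I19Rik and *Slc5a3* (both r = 0.87). All values are over 17 mice, and no shared function is implied by them.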

How the data were processed

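RNA from 21 mammary tumors was sequenced as stranded, ribosome-depleted libraries in paired ends. The authors trimmed reads with Trim Galore 0.5.0, aligned them with STAR 2.6.0c to GRCm38.p6 and counted them with HTSeq 0.6.1p2, keeping uniquely mapping reads on a single gene. The deposited counts are raw whole numbers per gene. The strand setting and annotation release of the counting were not given in the sources used here. The deposited tables also hold the authors' own fold changes and p-values, which were not used, and FPKM per tumor scaled by the authors, from which relative transcript lengths were taken. Cohorts came from the sample labels. The members and gene lists were chosen with earlier results of these data known.

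Counts were tested with edgeR 4.0.16 (TMM, filterByExpr, quasi-likelihood, Benjamini-Hochberg) in R 4.3.3, with no covariates, at an adjusted p under 0.05. Log2 CPM used a prior count of 2. The SE is the log2 fold change divided by the square root of F. Correlations used means per mouse and 2-sided permutation with 100000 resamples, or all pairings within a cohort (exact). Alternatives used DESeq2 1.42.0 and limma 3.58.1. Genes other than members were named by rule: any listed pathway gene called, the 2 with the smallest p in each role list, and the 2 most correlated with each member. A gene that this rule names is not reported here. The tests were tested on simulated data. No pair of libraries agreed within sampling noise. P-values measure the spread between tumors, of which some share a mouse. Histology is the study's listing, and R-18, R-21 and N-17 have none here.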

Additional observations from a re-analysis of the deposited data

Results flagged for a closer look

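Each member was screened in the 9 control tumors for a value far from the rest, by Dixon's ratio of the gap to the range (above 0.493). For normally distributed values chance flags about 1 in 20 groups. That rate need not hold for CPM on a linear scale, which was used here. Of the 10 members 3 had such a tumor. The flags of *Notch4* and *Dll4* fell on the same tumor and these genes were correlated (r = 0.84), so they are not independent. *Jag2* in N-1, listed as a spindle cell tumor, was 82.3 CPM, with the next control at 23.0 CPM (ratio 0.743). Summed squamous markers in N-1 were 1963 CPM, the highest among controls. *Notch4* and *Dll4* in N-17 were 49.3 and 30.3 CPM, with the next controls at 28.1 and 15.5 CPM (ratios 0.521 and 0.611). Endothelial markers in N-17 summed to 1102 CPM, skeletal muscle markers to 3952 CPM, adipocyte markers to 1015 CPM and mural markers to 1081 CPM, the highest of all 21 tumors for these 4 lists. The part of these cells in the *Notch4* and *Dll4* values was not tested.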

How the results depend on the processing

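No member was called in any alternative other than DESeq2, which called 1 (*Notch2*, adjusted p = 0.0170). The adjusted p of *Notch2* lay between 0.0170 and 0.307 over 9 alternatives, was 0.720 in the replicate block fit of 8 tumors and 0.418 in the same 8 without the block, and lay between 0.0579 and 0.131 over the 21 fits that each left out 1 tumor. The number of genes called, 43, was 1206 with DESeq2, 27 with library size in place of TMM, 3 with counts summed per mouse, 3 with mouse as a random effect in voom, 438 with only *Gata4*(loxP/+) controls, 3 without the tumors of P497, 26 without the squamous cell carcinomas and 19 without N-1. Leaving out 1 tumor gave 14 (without N-9) to 346 (without N-15) genes, and the count also moved by over 1.5 times without N-1 (19), N-6 (65), N-7 (20), N-8 (22), R-6 (22), R-10 (94), R-12 (108), R-13 (22), R-14 (20), R-15 (26), R-16 (23), R-18 (80) and R-21 (27). Other pathway genes called, 1, became 7 with DESeq2 (*Aph1a*, *Snw1*, *Rfng*, *Hes6*, *Ccnd1* and *Nrarp* besides *L3mbtl3*, with *Nrarp* named after its value was seen, beside 6.24% of all genes called) and 0 with counts summed per mouse, with voom and without P497. It ran from 1 to 2 when 1 tumor was left out, the second gene being *Hes6* without N-15. The causes were not tested.

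Log2 fold changes of uncalled genes changed sign in places. *Notch1* was -0.10 with counts summed per mouse, -0.097 with voom, -0.39 without the squamous cell carcinomas, and -0.018 (without R-6) to 0.38 with 1 tumor left out, and *Jag2* was -0.26 without the squamous cell carcinomas. *Dll1* was 0.35 with voom, 0.013 without the squamous cell carcinomas, and -0.23 to 0.39 with 1 tumor left out, being positive without N-6, N-8, N-17 or R-10. *Cntn1* was 0.19 with DESeq2 and 0.15 without N-1, and lay between -3.60 and 0.15 with 1 tumor left out. The tumor numbers that both cohorts share (1, 6, 7 and 15) name tumors and do not pair them: correlations of same-numbered deviations were -0.24, -0.18, -0.003 and 0.02. A fit of those 8 tumors with the number as a replicate block called 0 genes in all and 0 other pathway genes, with 1346 genes at an unadjusted p under 0.05, and gave -1.005 for *Notch1*, -0.031 for *Jag1*, -0.52 for *Jag2* and 1.37 for *Dll1*. The same 8 tumors without the block, chosen after seeing the data, called 0 genes and 0 other pathway genes, with 2119 at an unadjusted p under 0.05, and gave -0.37 for *Notch1* and 0.50 for *Dll1*.

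With all tumors as separate values, 14 pairs of members and 9 pairs with marker lists passed, in place of 5 and 4. The *Notch1* share of summed receptor levels was 32.3% with CPM per kb, 32.3% with deposited FPKM and 27.1% with GENCODE M21 lengths. Each cohort's histology is uneven, since all 3 squamous cell carcinomas are RhoC tumors, so cohort and histology cannot be told apart for them.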
